A study of Homo sapiens with 8 samples.

Results

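The cholesterol and fatty acid synthesis genes are the enzymes that build sterols and fatty acids from acetyl-CoA, with the proteins that sense sterols and switch these enzymes on. They were chosen by gene symbol from a named list. All 34 genes of that list were measured, by 45 probes, out of 21524 genes on the arrays. The sterol arm held 20 genes and the fatty acid arm held 14.

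The samples were 8 one-color arrays of total RNA from cells labelled NGP, an established human neuroblastoma line grown in serum-supplemented medium. In 4 of them the cells carried a mock lentiviral construct, and in the other 4 the label is CFC1, whose cDNA was delivered by the same system and encodes a co-receptor for Nodal and related ligands. Both groups were selected with puromycin. The sources used here do not name the promoter that drove CFC1 or tell whether a group was a clone or a pool. They also do not state that the 4 samples of a group were grown apart, and a p-value here covers only the spread from array to array, possibly a technical one.

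Cells make cholesterol along the mevalonate pathway, from acetyl-CoA through mevalonate, isoprenoid units, squalene and lanosterol. Fatty acids are built from the same acetyl-CoA by carboxylation and chain assembly, and are then elongated, desaturated and activated by coupling to coenzyme A. Both arms are switched on by the SREBP transcription factors, of which SREBP-2 is known mainly for sterol genes and SREBP-1 mainly for fatty acid genes. When membranes hold enough sterol, INSIG proteins keep the SREBP escort SCAP in the endoplasmic reticulum and the SREBPs stay inactive. Neural cells depend on their own synthesis because the brain takes up little cholesterol from blood, and neuroblastoma lines can also use the lipoproteins of serum.

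Promoter sequence is shown first for 4 members whose values lay far apart between the groups, because SREBPs act at promoters together with NF-Y and Sp1. MVK and NSDHL, enzymes of the sterol arm, were higher in the arrays labelled CFC1, whereas STARD4, a sterol carrier, and ELOVL2, an elongase, were lower. Each sequence is the 250 bases before the start of the gene, 5′ to 3′ on the strand of the gene, from RefSeq (GRCh38.p14). Capitals mark the NF-Y box CCAAT, a sterol regulatory element core CACCCCA and a looser form of it, TCACNCC, on either strand, and where these overlap the capitals run together.
MVK, chr12:109573544-109573793, plus strand: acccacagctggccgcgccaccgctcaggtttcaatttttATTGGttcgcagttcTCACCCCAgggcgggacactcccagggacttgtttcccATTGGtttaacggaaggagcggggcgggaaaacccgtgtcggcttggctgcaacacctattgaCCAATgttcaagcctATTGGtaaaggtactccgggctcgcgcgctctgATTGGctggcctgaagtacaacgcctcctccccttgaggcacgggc
NSDHL, chrX:152830813-152831062, plus strand: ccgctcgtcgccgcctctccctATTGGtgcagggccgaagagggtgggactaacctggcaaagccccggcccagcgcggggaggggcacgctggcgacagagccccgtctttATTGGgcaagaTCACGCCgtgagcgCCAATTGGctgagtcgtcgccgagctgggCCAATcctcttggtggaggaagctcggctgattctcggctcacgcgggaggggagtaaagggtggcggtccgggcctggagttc
STARD4, chr5:111512536-111512785, minus strand: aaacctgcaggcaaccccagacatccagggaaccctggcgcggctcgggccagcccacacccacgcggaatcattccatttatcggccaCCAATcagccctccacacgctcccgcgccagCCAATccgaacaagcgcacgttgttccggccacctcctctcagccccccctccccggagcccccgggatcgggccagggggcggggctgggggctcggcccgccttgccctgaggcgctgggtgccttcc
ELOVL2, chr6:11044306-11044555, minus strand: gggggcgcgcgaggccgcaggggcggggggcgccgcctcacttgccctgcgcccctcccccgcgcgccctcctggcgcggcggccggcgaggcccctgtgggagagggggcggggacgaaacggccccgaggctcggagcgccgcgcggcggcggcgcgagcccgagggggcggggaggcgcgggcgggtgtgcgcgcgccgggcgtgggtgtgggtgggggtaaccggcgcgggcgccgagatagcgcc
The MVK stretch held 5 NF-Y boxes and 1 match to the core, which overlaps its 1 match to the looser form. The NSDHL stretch held 5 NF-Y boxes, of which 2 overlap head to head, and 1 looser match. The STARD4 stretch held 2 NF-Y boxes and neither form of the sterol element, and ELOVL2 held none of the marked motifs but 4 GC boxes (GGGCGG, not capitalised). These 4 do not stand for the rest: SC5D, PMVK, DHCR7 and CYP51A1, the other sterol enzymes at least 2-fold higher, had neither form of the sterol element in their windows, and SREBF2, which was lower, had both.

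The same letters were searched in the 300-base windows of the RefSeq promoter table, which add 50 bases after the start. Windows on chromosome 8, where SQLE and FDFT1 lie, were left out of all these counts. What remained was 43 windows for 30 of the 34 genes and 35116 windows in all. A CCAAT box lay in 26 of the 43 windows (60.5%) and in 34.6% of all windows. By gene, 14 of the 17 sterol arm genes with a window had one and 8 of the 13 fatty acid genes did. Among all genes with a window the share was 39.7%. A GC box lay in 35 of 43 windows (81.4%) against 45.0% of all windows. The core CACCCCA lay in 6 windows (14%, 8.08% of all), those of ACLY, ACSL1, EBP, MVD, MVK and SREBF2. The looser form lay in 9 windows (20.9%, 15.5% of all), and the E-box CACGTG in 6 windows (14%, 7.26% of all). A match describes the letters only and shows no binding, and windows of 1 gene can overlap.

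The deposited log2 values are set against a baseline of each probe that is not stated, so they compare arrays for 1 gene and give no level of expression. A positive difference means higher in the arrays labelled CFC1. The transduced gene itself was not higher in the second group. Its single probe gave 0.42 ± 0.503 (SD, n = 4) in mock and -0.38 ± 0.335 (SD, n = 4) under the CFC1 label, a difference of -0.80 (limma adjusted p = 0.0398, exact two-sided permutation p = 0.0571). The limma call was lost when any of mock replicates 1 and 2 and CFC1 replicates 2, 3 and 4 was left out, where the difference ran from -0.825 to -0.568 and the adjusted p from 0.061 to 0.0994. The second group is therefore named by its label, and every direction below rests on the labels. The 2 groups lay far apart over the whole array: 57.9% of all genes passed limma's test at an adjusted p of 0.05, with 29.7% higher and 28.2% lower, and counts of members are to be read against these shares.

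In the arrays labelled CFC1, 24 of the 34 members were higher, 7 were lower and 3 did not pass the test. The groups did not overlap for 23 members that were higher and 9 that were lower, where 29.1% and 27.3% of all genes showed this (56.5% together). The median difference was 0.52 over the members and -0.0859 over all genes. In the sterol arm 16 of 20 were higher and 3 lower, with a median of 0.67, and in the fatty acid arm 8 of 14 were higher and 4 lower, with a median of 0.19. These arm summaries are descriptions without a test, since the members were chosen with results of these data known. Replicates lay close together: the residual SD of 33 of the 34 members was below the all-gene median of 0.126. In bulk RNA, fewer cells of a type and less RNA per cell cannot be told apart.

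**Figure D1:**
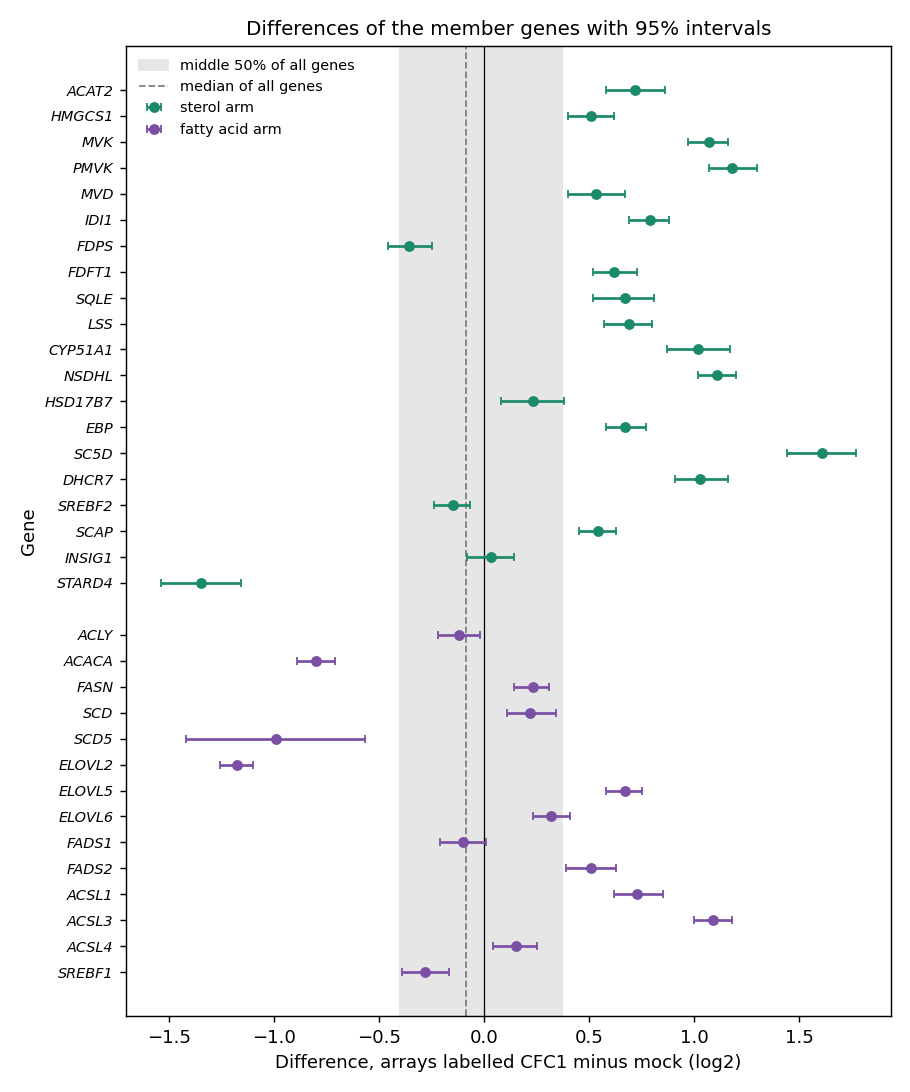
Difference between arrays labelled CFC1 and mock arrays (log2, horizontal axis) for each of the 34 genes, with bars for the 95% interval from limma; the dashed line is the median of all genes (-0.0859) and the band runs between their quartiles (-0.402 and 0.37). In the sterol arm 14 of the 16 enzymes lie to the right of the band, whereas the fatty acid genes spread from -1.18 (ELOVL2) to 1.09 (ACSL3).

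The 5 enzymes that carry acetyl-CoA to activated mevalonate were all higher. ACAT2, the cytosolic thiolase that joins 2 acetyl-CoA, stood at 0, -0.08, 0.02 and 0.13 in mock replicates 1 to 4 and at 0.63, 0.74, 0.76 and 0.81 in the arrays labelled CFC1. The difference was 0.72 (SE 0.0583, limma adjusted p = 1.76e-05). HMGCS1, which makes HMG-CoA, ran from -0.43 to -0.25 in mock and from 0.14 to 0.25 in the arrays labelled CFC1, a smaller difference of 0.51 (SE 0.0486). The kinases that follow moved further apart.

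MVK, mevalonate kinase, gave -1.07, -1.18, -1.10 and -1.06 in mock and -0.08, -0.07, 0 and -0.01 in the arrays labelled CFC1. This is a 2.09-fold difference (1.07, SE 0.0404, limma adjusted p = 2.55e-07), with no overlap. PMVK, which adds the next phosphate, gave -1.36, -1.22, -1.19 and -1.22 against -0.09, -0.11, -0.06 and 0, a 2.27-fold difference. The interval of PMVK (1.07 to 1.30) and that of MVK (0.97 to 1.16) overlap. MVD, the decarboxylase that closes this stretch, was higher by 0.53 (95% interval 0.40 to 0.67).

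**Figure D2:**
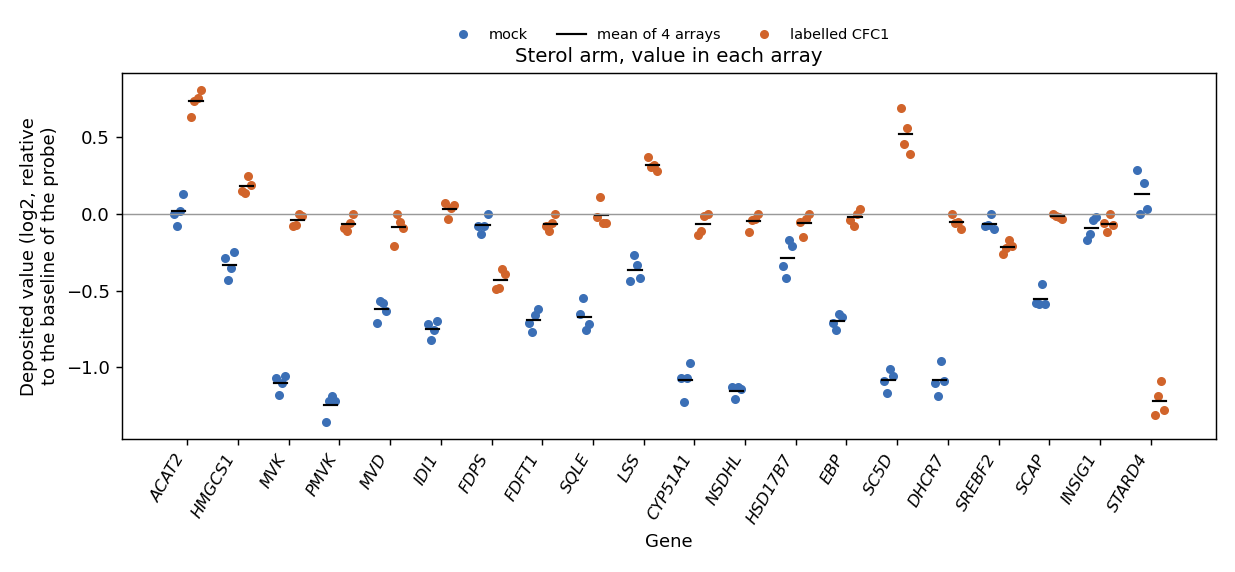
Deposited value of each sterol arm gene in each array (log2, relative to the baseline of the probe), with enzymes in pathway order and then the sensing and transport genes; blue points are the 4 mock arrays, orange points the 4 arrays labelled CFC1, and bars are means. For MVK, PMVK, CYP51A1, NSDHL, SC5D and DHCR7 the mock points lie near -1 and the orange points at or above -0.14, FDPS, SREBF2 and STARD4 run the other way, and INSIG1 overlaps.

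From isoprenoid units to squalene, 3 enzymes were higher and 1 lower. IDI1, which isomerises the 5-carbon unit, gave -0.72, -0.82, -0.76 and -0.70 in mock and 0.07, -0.03, 0.04 and 0.06 in the arrays labelled CFC1 (0.79, SE 0.0403). FDFT1, squalene synthase, and SQLE, squalene epoxidase, were higher by 0.62 (SE 0.0456) and 0.67 (SE 0.0612). Between these steps FDPS, farnesyl diphosphate synthase, was the only sterol enzyme of the list that was lower. It gave -0.08, -0.13, -0.08 and 0 in mock and -0.49, -0.48, -0.36 and -0.39 in the arrays labelled CFC1, a difference of -0.36 (SE 0.0464, limma adjusted p = 0.000284). FDPS has processed copies elsewhere in the genome, so its single probe may also read those. The neighbours of FDPS on chromosome 1, the 10 measured genes on each side, had a median difference of -0.44, with 12 of 20 lower.

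All 7 members that act between squalene epoxide and cholesterol were higher, and this stretch had the largest median, 1.02, of the 3 stretches of the pathway. CYP51A1, lanosterol demethylase, gave -1.07, -1.23, -1.07 and -0.97 in mock and -0.14, -0.11, -0.01 and 0 in the arrays labelled CFC1 (1.02, SE 0.0641, limma adjusted p = 4.01e-06). NSDHL, which takes part in removing the methyl groups at carbon 4, gave -1.13, -1.21, -1.13 and -1.14 against -0.12, -0.04, -0.03 and 0, a 2.15-fold difference. Its values and those of MVK, whose promoters are printed above, differed between the groups by nearly the same amount (1.11 and 1.07). TM7SF2, a sterol C14 reductase of the same stretch that is not a member and was named after its value was seen, was lower, with values from -0.12 to 0 in mock and from -0.42 to -0.34 in the arrays labelled CFC1 (-0.34, SE 0.0408, limma adjusted p = 0.000179).

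Of the sterol enzymes of the list, SC5D alone showed the widest gap, and DHCR7, which follows it, lay below PMVK, NSDHL and MVK. SC5D, the sterol desaturase, gave -1.09, -1.17, -1.01 and -1.06 in mock and 0.69, 0.46, 0.56 and 0.39 in the arrays labelled CFC1. The difference of 1.61 (95% interval 1.44 to 1.77), or 3.05-fold, was the largest of the 34 members, and 5.51% of all genes had a larger rise. DHCR7, which makes cholesterol from 7-dehydrocholesterol, gave -1.10, -1.19, -0.96 and -1.09 against 0, -0.06, -0.05 and -0.10 (1.03, SE 0.0532). EBP, a sterol isomerase, and LSS, lanosterol synthase, were higher by 0.67 and 0.69.

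HSD17B7, a ketosteroid reductase of the pathway, had the smallest difference among the enzymes that were higher, 0.23 (SE 0.0645, limma adjusted p = 0.0173). Its 4 probes gave -0.23, 0.32, 0.33 and 0.50, and in a fit over all 50599 probes, where 42.1% passed, the lowest did not pass (adjusted p = 0.223). A near-identical pseudogene of HSD17B7 exists, so the value is uncertain. The 2 probes of LSS, at 0.44 and 0.93, both passed that test.

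The 4 genes for sensing or carrying sterols had no single direction: 1 was higher, 2 were lower and 1 did not pass. SREBF2, which encodes SREBP-2, gave -0.08, -0.07, 0 and -0.10 in mock and -0.26, -0.22, -0.17 and -0.21 in the arrays labelled CFC1. The difference of -0.15 (SE 0.037, limma adjusted p = 0.00823) was small, and the call was lost with arrays centred on their medians (-0.111, adjusted p = 0.348) or scaled to E1A control rows (-0.051, adjusted p = 0.501). INSIG1, a retention factor that is itself a known SREBP target, gave -0.17, -0.13, -0.04 and -0.02 against -0.06, -0.12, 0 and -0.07. Its difference of 0.03 did not pass (95% interval -0.08 to 0.14, limma adjusted p = 0.641), and the groups overlapped.

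SCAP, the SREBP escort, was higher by 0.54 (SE 0.0401), with -0.58, -0.59, -0.46 and -0.59 in mock and values from -0.03 to 0 in the arrays labelled CFC1. Its neighbours on chromosome 3 were also higher, 14 of 20, with a median of 0.74, which is above the difference of SCAP itself. STARD4, which moves cholesterol between membranes and is another known SREBP target, ran opposite to the enzymes. It gave 0.29, 0, 0.20 and 0.03 in mock and -1.31, -1.19, -1.09 and -1.28 in the arrays labelled CFC1, a difference of -1.35 (95% interval -1.54 to -1.16) or 2.55-fold lower. The difference was -2.50 after quantile normalization.

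The fatty acid arm showed no single direction. At its entry, ACLY, which makes cytosolic acetyl-CoA from citrate and serves both arms, gave 0.22, 0.18, 0.21 and 0.25 in mock and 0.16, 0.13, 0.11 and 0 in the arrays labelled CFC1. The groups did not overlap, yet the difference of -0.12 did not pass (limma adjusted p = 0.0505), and it stood at 0.061 after quantile normalization. ACLY passed as lower with unmoderated variances (-0.117, adjusted p = 0.0389) and without CFC1 replicate 1 (-0.138, adjusted p = 0.0403). ACACA, acetyl-CoA carboxylase and the committed step, gave 0.37, 0.30, 0.37 and 0.40 against -0.43, -0.49, -0.43 and -0.40. It was 1.74-fold lower (a difference of -0.80, SE 0.0365, limma adjusted p = 6.81e-07), with its 2 probes at -1.13 and -0.47. The neighbours of ACACA on chromosome 17 had a median of -0.56, with 13 of 20 lower.

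FASN, the fatty acid synthase that follows, was higher by 0.23 (SE 0.0369, limma adjusted p = 0.00101). Its mock values were -0.22, -0.20, -0.24 and -0.14 and those of the arrays labelled CFC1 0.06, -0.03, 0.04 and 0.04. Thus of the 3 enzymes from citrate to palmitate 1 was higher, 1 lower and 1 did not pass, against 5 of 5 higher in the mevalonate steps.

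**Figure D3:**
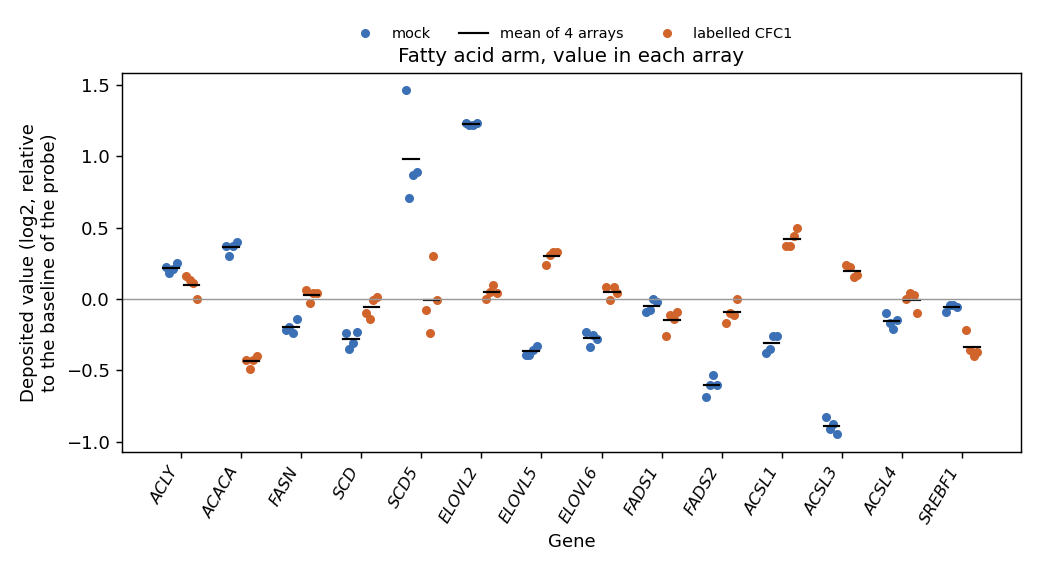
Deposited value of each fatty acid arm gene in each array (log2, relative to the baseline of the probe), with colours and bars as in the sterol plot. ACACA, SCD5, ELOVL2 and SREBF1 are lower in the arrays labelled CFC1, ACSL3 shows the widest gap upward (1.09), and the mock values of SCD5 spread from 0.71 to 1.46.

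The 4 desaturases split within their families. SCD, which puts the first double bond into saturated chains, was higher by 0.22 (SE 0.0495, limma adjusted p = 0.0052), from -0.24, -0.35, -0.31 and -0.23 in mock to -0.10, -0.14, -0.01 and 0.01. SCD5, the other human stearoyl-CoA desaturase, known from brain, gave 1.46, 0.71, 0.87 and 0.89 against -0.08, -0.24, 0.30 and -0.01, a difference of -0.99 (SE 0.182, limma adjusted p = 0.00193). SCD5 was the least precise member, with a residual SD of 0.279. Its 4 probes gave differences from -1.65 to -0.63, of which those at -1.65 and -0.63 passed in the fit over all probes. In that fit SCD5 was represented by its probe at -0.959, and the call was lost (adjusted p = 0.0692).

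FADS1 and FADS2, neighbouring genes for the delta-5 and delta-6 desaturases of polyunsaturated fatty acids, also parted. FADS2 was higher by 0.51 (SE 0.0507), from -0.69, -0.60, -0.53 and -0.60 in mock to -0.17, -0.10, -0.11 and 0. FADS1 gave -0.09, -0.08, 0 and -0.02 against -0.26, -0.11, -0.14 and -0.09, and its difference of -0.10 (95% interval -0.21 to 0.01) did not pass (limma adjusted p = 0.11).

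Among the elongases, ELOVL2, which lengthens polyunsaturated chains, was the fatty acid gene that was lowest. Its mock values were 1.23, 1.22, 1.22 and 1.23 and those of the arrays labelled CFC1 0, 0.05, 0.10 and 0.04, a difference of -1.18 (SE 0.0325, limma adjusted p = 4.96e-08) or 2.27-fold lower. ELOVL5, which acts on polyunsaturated chains that only partly overlap with those of ELOVL2, was higher by 0.67 (SE 0.0356), with probes at 0.40 and 0.94. ELOVL6, which turns palmitate into stearate, was higher by 0.32 (SE 0.0378), but only its probe at 0.51 passed in the fit over all probes and the other, at 0.13, did not (adjusted p = 0.0699).

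All 3 acyl-CoA synthetases, which activate long-chain fatty acids, were higher. ACSL3, known from lipid droplets, gave -0.83, -0.91, -0.88 and -0.95 in mock and 0.24, 0.22, 0.15 and 0.17 in the arrays labelled CFC1, a 2.13-fold difference (1.09, SE 0.0395). ACSL1 was higher by 0.73 (SE 0.0483), from between -0.38 and -0.26 to between 0.37 and 0.50. ACSL4, which prefers arachidonate, was higher by 0.15 (SE 0.0445, limma adjusted p = 0.0226) with overlapping groups. Its call was lost when any of mock replicates 2 and 3 and CFC1 replicates 1, 2 and 3 was left out (0.13 to 0.145, adjusted p from 0.0537 to 0.0612), after quantile normalization (0.144, adjusted p = 0.154), with median centring (0.19, adjusted p = 0.0995) and in the fit over all probes (adjusted p = 0.053). SREBF1, which encodes SREBP-1, was lower by a difference of -0.28 (SE 0.046, limma adjusted p = 0.00106), from -0.09, -0.04, -0.04 and -0.06 to -0.22, -0.36, -0.40 and -0.37. Its 2 probes did not move alike, at -0.53 and -0.03, and the second did not pass (adjusted p = 0.806).

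Related genes were set against each other within each array, where the baselines cancel between the groups. Each of 7 pairs was tested by two-sided exact permutation (70 arrangements, smallest possible p 0.0286), with p adjusted over the pairs. SCD minus SCD5 was -1.27 ± 0.293 (SD, n = 4) in mock and -0.05 ± 0.174 (SD, n = 4) under the CFC1 label, a shift of 1.22 (95% interval 0.80 to 1.63). ELOVL2 minus ELOVL5 shifted by -1.85 (-1.90 to -1.80), the largest of the 7. FADS1 minus FADS2 shifted by -0.61, ACSL3 minus ACSL4 by 0.94, ACSL1 minus ACSL4 by 0.59 and ELOVL5 minus ELOVL6 by 0.35. In these 6 pairs the groups did not overlap, each exact p was 0.0286 and each adjusted p 0.0333. The pairs were formed by family among members chosen with results of these data known, so these p-values give no independent support. The groups did not overlap for 56.5% of all single genes, and no share over all gene pairs was counted.

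SREBF1 minus SREBF2 is the pair in which no difference was shown, with a shift of -0.13 (95% interval -0.28 to 0.02, exact permutation p = 0.114). It became -0.376 (adjusted exact p = 0.0286) when SREBF1 was represented by its probe at -0.53 alone.

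**Figure D4:**
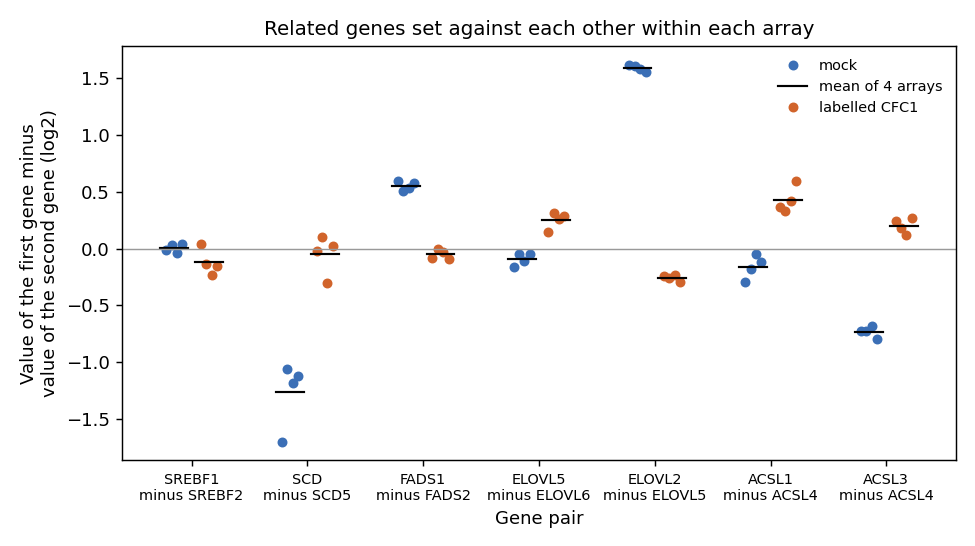
Value of the first gene minus that of the second (log2) in each array for 7 pairs of related genes; blue points are mock arrays, orange points arrays labelled CFC1, and bars are means of 4 arrays. The colours separate in every pair but SREBF1 minus SREBF2, where 1 orange point (0.04) lies among the mock points (-0.04 to 0.04).

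The other genes of these pathways came from lists drawn up with earlier results of these data known. Of 19 other sterol genes, 7 were higher and 9 lower (limma, 29.7% and 28.2% of all genes), with a median of -0.26. Enzymes of the pathway went both ways. MSMO1, which starts removal of the methyl groups at carbon 4, was higher by 1.23 and LBR, a sterol reductase of the nuclear envelope, by 0.78, beside neighbours with a median of 0.72, whereas TM7SF2, which shares the reductase step of LBR, was lower (-0.34). NPC2, which binds cholesterol in lysosomes, was higher by 2.24 and SOAT1, which esterifies cholesterol, by 1.59. NPC1, the lysosomal partner of NPC2, was named after its value was seen and was lower (-0.37, limma adjusted p = 2.42e-05).

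Of the 4 sterol genes that were lowest, 3 serve cholesterol export or the control of uptake. ABCA1, the pump that loads cholesterol onto apolipoprotein A-I, gave 4.13, 4.17, 4 and 4.12 in mock and -0.67, 0.43, -0.05 and 0.06 in the arrays labelled CFC1, a difference of -4.16 (SE 0.212, limma adjusted p = 1.25e-06). Only 0.186% of all genes were lower still. ABCG1, a second exporter, differed by -1.46 and MYLIP, which marks lipoprotein receptors for breakdown, by -1.33. MBTPS1, the protease that makes the first cut in SREBPs, differed by -1.09.

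Of 33 other fatty acid genes, 14 were higher and 6 lower (limma, 29.7% and 28.2% of all genes), with a median of 0.05. ME1, a malic enzyme that supplies NADPH, was higher by 4.52, ELOVL3 by 3.93, MLXIPL, which encodes the glucose-responsive factor ChREBP, by 3.88 and FADS3 by 2.53. MLXIP, which encodes its paralogue MondoA, differed by -2.76, from 2.75, 2.86, 2.84 and 2.75 in mock to between 0.03 and 0.05, and 18 of its 20 neighbours were lower too, with a median of -2.07. DGAT2 and GPAM, enzymes of triglyceride synthesis, differed by -1.08 and -0.86, and ELOVL7 by -0.99, whose call was lost after quantile normalization (adjusted p = 0.053).

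Each member was also set beside the 10 measured genes on either side of it in chromosome order. Neighbour medians ran from -0.56 (ACACA) to 0.74 (SCAP). For 15 of the 34 members the neighbour median had the sign of the member, and 26 members lay farther from 0 than their neighbour median. A median of many genes tends to lie nearer 0 than a single gene, so the count of 26 does not show that the members stand out. SC5D stood at 1.61 beside a neighbour median of -0.26, LSS at 0.69 beside -0.50 and FDFT1 at 0.62 beside -0.45. In the sterol arm 17 of 20 members lay above their neighbour median, and in the fatty acid arm 9 of 14 did. No such count was made over all genes, and most sterol arm members were higher to begin with. The part of gene position in these differences was not tested.

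**Figure D5:**
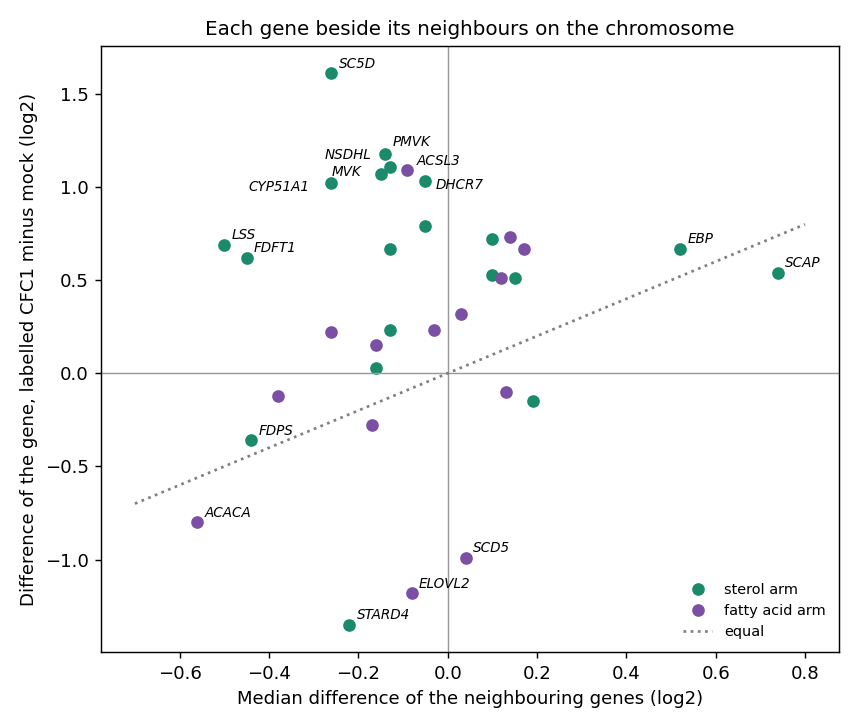
Difference of each member (log2, vertical axis) against the median difference of up to 20 neighbouring measured genes (log2, horizontal axis), with sterol arm genes in green, fatty acid genes in purple and a dotted line of equality. Most sterol arm genes lie above the line, while FDPS, SCAP and EBP lie near it.

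For 21 of the 34 members the mean of the arrays labelled CFC1 lay within 0.1 of the baseline, against 6 for mock. A member called higher is thus one whose groups differ, and the values do not show which group moved. The share of all genes with means this near the baseline was not counted. These counts are therefore not shown to be particular to the members.

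Marker genes moved together with the groups, and the table gives no level by which a marker could be called absent. Of 11 adrenergic neuroblastoma markers 0 were higher and 9 lower (limma, 29.7% and 28.2% of all genes), with array medians from 1.10 to 1.23 in mock and from 0 to 0.07 in the arrays labelled CFC1. The largest differences were TFAP2B (-3.86) and DDC (-2.51). Of 9 mesenchymal markers 4 were higher and 3 lower, with NOTCH2 at 7.73, YAP1 at 5.90, PRRX1 at -2.30 and FN1 at -0.68 (array medians -0.39 to 0.05 and -0.08 to 0). Of 8 fibroblast markers 1 was higher (THY1, 0.34) and 6 lower, with PDGFRA at -2.78 and COL3A1 at -1.88 (array medians 0.46 to 0.80 and -0.11 to 0). Of 6 Schwann and glial markers 4 were lower, with S100B at -1.35 and FABP7 at -1.17 (array medians 0.30 to 0.51 and -0.37 to -0.12), and of 6 endothelial markers 2, KDR (-3.08) and TEK (-2.89), with array medians of -0.18 to 0.37 and -0.24 to 0.21. Of 5 immune markers CD14 was higher (1.16) and CD68 lower (-0.42), with array medians of -0.21 to 0.21 and 0 to 0.14. The calls of FABP7 and CD68 were lost when most single arrays were left out, at -1.23 to -0.959 and -0.439 to -0.337. The part of these changes in the differences of the synthesis genes was not tested.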

How the data were processed

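The authors deposited 1 value per probe and array, read here as log2 of Cyanine3 signal from one-color Agilent arrays, per the labels' protocols. How features were extracted, corrected for background, scaled and centred, and on which log base, is not given in the sources used here. Each deposited log2 value is relative to a baseline of its probe that is not stated, and array medians ran from -0.144 to 0.138. The number of arrays limits the precision. Of 50739 rows, 140 control rows were left out, 31993 probes had 1 gene symbol, none had several and 18606 were unnamed. Symbols were updated through the RefSeq table (GRCh38.p14), and probes were averaged into 21524 genes.

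Groups were compared with limma 3.58.1, run under R 4.3.3 with lmFit and eBayes on all 8 arrays without a block, two-sided, with Benjamini-Hochberg adjustment over all genes at 0.05. The code was tested on simulated data. Pairs of genes and CFC1 were compared by exact permutation in scipy 1.17.1. Alternatives were the replicate block, quantile normalization, median centring, array weights, a variance trend, unmoderated variances, all probes, leaving out low-spread genes, each array left out, and, added after the data were seen, scaling to E1A control rows. For all probes, each gene was represented by its probe with the median difference. With an even number of probes the lower of the middle pair was taken, so this alternative leans low for such genes. The members and lists were chosen with earlier results of these data known. The text names every member, CFC1, and the 4 largest changes each way in the lists of other sterol and fatty acid genes and the 2 largest each way in the marker lists. Some genes of these lists were not analysed here.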

Additional observations from a re-analysis of the deposited data

Results flagged for a closer look

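In 6 of the groups of 4 arrays examined, 1 array stood apart from the other 3, by the gap to its nearest neighbour as a share of the whole range of the group. Chance flags about 1 in 20 groups, and 146 groups were examined. Mock replicate 2 stood apart for NSDHL (-1.21, gap 0.935 of the range) and mock replicate 3 for SCAP (-0.46, 0.928). Among the other genes, mock replicate 4 stood apart for MYLIP (1.28, 0.858), YAP1 (-5.53, 0.852) and COL3A1 (2.17, 0.867), and CFC1 replicate 1 for LBR (0.46, 0.882). None of these groups overlapped the opposite group. No cause of these values was tested.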

How the results depend on the processing

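Over the alternatives run for each, 26 of the 34 members and 28 of the 31 named genes of other lists kept their direction and their side of the threshold. There were 17 alternatives, or 16 for ACACA, ELOVL2, ELOVL5, GPAM, MBTPS1 and PDGFRA, which the low-spread filter removed. The count of sterol genes that were lower went from 3 to 1 with enzymes only, and that of fatty acid genes that were lower from 4 to 2 without low-spread genes, because fewer genes were counted. The median of the sterol arm (0.67) became 0.584 after quantile normalization, 0.712 with median centring and 0.772 with E1A scaling, which raised the median of all genes by 0.10. The median of the fatty acid arm (0.186) became 0.228 with median centring, 0.14 over all probes, 0.224 without low-spread genes or with enzymes only, and 0.288 with E1A scaling. Values of 3 members without a call changed sign: INSIG1 without mock replicate 1 (-0.000241), ACLY after quantile normalization (0.061) and FADS1 with E1A scaling (0.00103). The call of SREBF1 was lost with E1A scaling (-0.178, adjusted p = 0.0523) and that of SREBF2 with E1A scaling (-0.051, adjusted p = 0.501) and quantile normalization (-0.215, adjusted p = 0.0509). Quantile normalization also moved differences by over 1.5 times with no call lost: ACAT2 to 1.11, FDPS to -0.57, STARD4 to -2.50, SCD5 to -0.659, ABCG1 to -0.88, ME1 to 2.93, FADS3 to 1.67, DGAT2 to -2.17, GPAM to -0.542, FN1 to -0.431 and COL3A1 to -1.24. Over all probes S100B, represented there by the lower of its 2 probes, was at -2.55. The calls of SCD5 (-0.959, adjusted p = 0.0692) and ELOVL6 (0.133, adjusted p = 0.0699) were lost over all probes. The call of CFC1 (-0.796) was lost with the replicate block (-0.796), unmoderated variances (-0.796), all probes (-0.796), median centring (-0.754) and E1A scaling (-0.694). Leaving out single arrays gave -0.944 to -0.568 for CFC1, with the 5 lost calls from -0.825 to -0.568. SREBF1 minus SREBF2 passed over all probes (-0.376). Causes were not tested.

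Same-numbered arrays shared deviations with correlations of 0.138, 0.199, 0.074 and 0.19, each array correlating best with its own number, which is a hint from the data and not part of the design. The replicate block gave 23 members higher and 7 lower, lost the call of ACSL4 (0.147, adjusted p = 0.052), and called 6446 genes higher and 6754 lower.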

Other observations

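Outside the 4 largest changes each way, 10 other fatty acid genes passed limma's test as higher and 2 as lower, and all are given here, after their values were seen. ACSS2, which makes acetyl-CoA from acetate, was higher by 1.09 (SE 0.0493), from -1.25, -1.06, -1.11 and -1.12 in mock to between -0.09 and 0 in the arrays labelled CFC1. AGPAT2, an acyltransferase of phosphatidic acid synthesis, was higher by 1.69, MID1IP1, an activator of acetyl-CoA carboxylase, by 1.48 and MCAT, of mitochondrial fatty acid synthesis, by 0.53. In chain elongation, HACD1, a dehydratase, was higher by 1.37, ELOVL4 by 0.37 and ELOVL1 by 0.22, whereas HSD17B12, the ketoacyl reductase, was lower, with a difference of -0.79 (limma adjusted p = 1.08e-05). The carnitine transferases CPT1A and CPT2, which serve fatty acid breakdown, were higher by 0.61 and 0.69, and PNPLA2, the triglyceride lipase, by 0.83. LPIN1, a phosphatidate phosphatase, was lower (-0.47, limma adjusted p = 0.00428). Among all genes, 29.7% were higher and 28.2% lower.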
